A study of Mus musculus with 6 samples.

Results

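The nuclear genes of the mitochondrial respiratory chain were compared between the cerebellum of mice deficient in Gb5 (KO) and that of wild-type mice (WT). Genes were taken when a probe annotated to 1 gene alone carried a symbol beginning with Nduf, Sdh, Uqcr, Cox4 to Cox8 or Atp5, and each gene was read from its probe with the highest mean over the 6 arrays. This gave 93 of the 18193 genes with such a probe: 34 subunits of complex I, 4 of complex II, 8 of complex III, 17 of complex IV, 17 of complex V and 13 assembly factors. Ndufa4 and Ndufa4l2 were counted with complex IV, and Ndufaf1 to Ndufaf8, Sdhaf1 to Sdhaf4 and Cox7a2l with the assembly factors. Of these genes 91 passed the filter on low signal and were tested, among 14067 genes in all.

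The study hybridised total RNA from 3 KO and 3 WT mice to 1 Affymetrix array each. KO mice are labelled Gb5-deficient (gene Gnb5, a G protein beta subunit that partners the R7 family of regulators of G protein signalling), and WT mice are labelled wild type. The labels call the tissue brain and the series title calls it cerebellum. They describe littermates of matched age and sex, and give no age, strain, sex or construction of the null allele. KO arrays are numbered 4, 5 and 6 and WT arrays 1, 2 and 3, and values below follow that order within each group.

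The respiratory chain passes electrons from NADH and succinate through complexes I to IV to oxygen and pumps protons across the inner mitochondrial membrane, and complex V lets the protons back through to make ATP. The complexes hold nuclear-encoded subunits, described here. All but complex II also hold subunits encoded by mitochondrial DNA, which were not analysed here. Neurons draw most of their ATP from this pathway, and several complex IV subunits exist as isoforms that are best known from heart and skeletal muscle, testis or lung.

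Before the comparison, the arrays were checked. Gnb5 had log2 signals of 3.65, 3.36 and 2.96 in KO and 8.80, 8.51 and 8.70 in WT, a difference of -5.35 ± 0.18 (limma, adjusted p = 4.33e-06). Correlations between arrays over all probes ran from 0.991 to 0.997. KO array 6 stood apart from the sex-matched label: its Xist signal was 8.22, against 11.17 to 11.64 on the other arrays, and its Eif2s3y signal was 11.80, against 3.19 to 3.43. Its difference between the 3′ and 5′ Gapdh control probes was also the widest, 1.58 against 1.03 to 1.14 on the others. Of the 36 named and tested respiratory chain genes, 15 had a difference that changed by over 1.5 times or in sign when this array was left out. Such changes were not particular to this array. More of these genes changed that much without KO array 5, and 29 did with at least 1 of the 6 arrays left out. Among cell type markers, cerebellar Purkinje and granule cell markers were present on every array, with mean log2 signals of 11.88 to 12.05 in KO and 11.85 to 11.98 in WT for the Purkinje list, and 11.37 to 11.77 in KO and 11.43 to 11.64 in WT for the granule cell list. Over all tested genes 5 passed an adjusted p of 0.05 in limma: Gnb5, Guca1b, Cap1, Col12a1 and Rsad2, none of them a respiratory chain gene.

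The promoters of the respiratory chain genes are shown for what they share. NRF1 and GABPA (the DNA-binding subunit of NRF2) are transcription factors known for binding promoters of nuclear respiratory genes. RefSeq (GRCm38.p6) gave a window of 250 bases before to 50 after the start for 77 of the 93 genes. The NRF1 motif was found on either strand in 19 of the 77 windows (24.7%), against 5.19% of the windows of all 27025 genes. On either strand the GABPA motif, CCGGAAG, was found in 22 (28.6%), against 9.93%, and the YY1 motif, AAGATGGC, in 10 (13.0%), against 3.19%. The GC box GGGGCGGGG was in 12 (15.6%), against 12.9%, and the nuclear receptor half-site TGACCT in 16 (20.8%), against 18.1%. The members' windows also held a median of 20 CpG, against 8 over all windows. The 200 bases before the start follow for 1 gene of each complex, picked after motif positions were seen, and for Cox8b, a muscle isoform of complex IV whose window held 2 CpG and neither motif. Capitals mark NRF1 and GABPA matches on either strand. All 6 genes lie on the minus strand and are printed 5′ to 3′.
Ndufs3 (chr2:90904722-90904921): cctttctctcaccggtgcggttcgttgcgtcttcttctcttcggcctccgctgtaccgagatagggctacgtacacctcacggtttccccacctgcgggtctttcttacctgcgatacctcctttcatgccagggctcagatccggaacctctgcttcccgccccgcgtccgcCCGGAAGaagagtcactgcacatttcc
Sdha (chr13:74350241-74350440): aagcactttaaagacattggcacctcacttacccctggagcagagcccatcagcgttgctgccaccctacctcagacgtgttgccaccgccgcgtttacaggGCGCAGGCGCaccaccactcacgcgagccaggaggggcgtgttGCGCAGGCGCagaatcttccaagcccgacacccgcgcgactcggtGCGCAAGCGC
Uqcr11 (chr10:80406822-80407021): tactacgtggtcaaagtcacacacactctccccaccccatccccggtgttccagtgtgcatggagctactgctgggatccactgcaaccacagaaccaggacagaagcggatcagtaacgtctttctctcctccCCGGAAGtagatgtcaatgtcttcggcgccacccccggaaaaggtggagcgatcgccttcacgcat
Cox6a1 (chr5:115348959-115349158): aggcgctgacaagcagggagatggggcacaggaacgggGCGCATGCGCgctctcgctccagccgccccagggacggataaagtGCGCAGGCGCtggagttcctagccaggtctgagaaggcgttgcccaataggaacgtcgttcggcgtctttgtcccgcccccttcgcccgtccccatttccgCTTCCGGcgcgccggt
Atp5h (chr11:115419920-115420119): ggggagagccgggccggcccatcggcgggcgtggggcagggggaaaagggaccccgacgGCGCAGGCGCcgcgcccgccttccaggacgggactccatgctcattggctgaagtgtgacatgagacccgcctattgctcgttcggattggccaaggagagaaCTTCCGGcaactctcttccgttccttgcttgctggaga
Cox8b (chr7:140900447-140900646): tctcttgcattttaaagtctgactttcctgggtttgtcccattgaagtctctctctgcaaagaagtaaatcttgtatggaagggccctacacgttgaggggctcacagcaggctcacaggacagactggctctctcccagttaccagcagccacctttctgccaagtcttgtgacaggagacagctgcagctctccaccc
The median KO minus WT difference was 0.0079 in 18 tested genes with the NRF1 motif and 0.0247 in 57 without it, and 0.0231 in 22 with the GABPA motif and 0.0247 in 53 without it. It was 0.0327 in 10 genes with the YY1 motif and 0.0239 in 65 without, 0.0416 in 12 with the GC box and 0.0239 in 63 without, and 0.0158 in 14 with the half-site and 0.0276 in 61 without. No test was made of these medians.

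The respiratory chain genes as a whole differed little between KO and WT cerebellum. None of the 91 tested genes passed an adjusted p of 0.05 or of 0.1 in limma, where 0.0355% and 0.0498% of all tested genes did. The lowest adjusted p among them was 0.480, for Ndufa12. At an unadjusted p of 0.05, 4 were higher in KO (4.4%, against 5.7% of all genes) and 1 was lower (1.1%, against 2.86%). The 3 KO arrays lay above the 3 WT arrays for 12 of the 91 (13.2%, against 10.1% of all genes) and below them for 3 (3.3%, against 4.82%). These shares lie near those of all genes. In bulk tissue, fewer cells of a type and less RNA per cell cannot be told apart.

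The data bound the size of these differences more closely than for most genes. The median difference was 0.0295 (log2, KO minus WT), against 0.026 over all genes. The median of the single genes' standard errors was 0.0646, against 0.118, which is not an error of the median difference. The 95% limma interval lay within 0.5 log2 units of 0 for 86 of the 91 genes (94.5%, against 73.6% of all genes) and within 0.25 for 54 (59.3%, against 14.4%). The members' probes had a median log2 signal of 12.10, against 8.93 over all tested genes, and the intensity trend of the model assigns smaller standard errors to brighter probes. The difference was above 0 for 60 genes (65.9%, against 56.7%). With array medians subtracted these shares were 51.6% of the members and 50.1% of all genes.

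**Figure D1:**
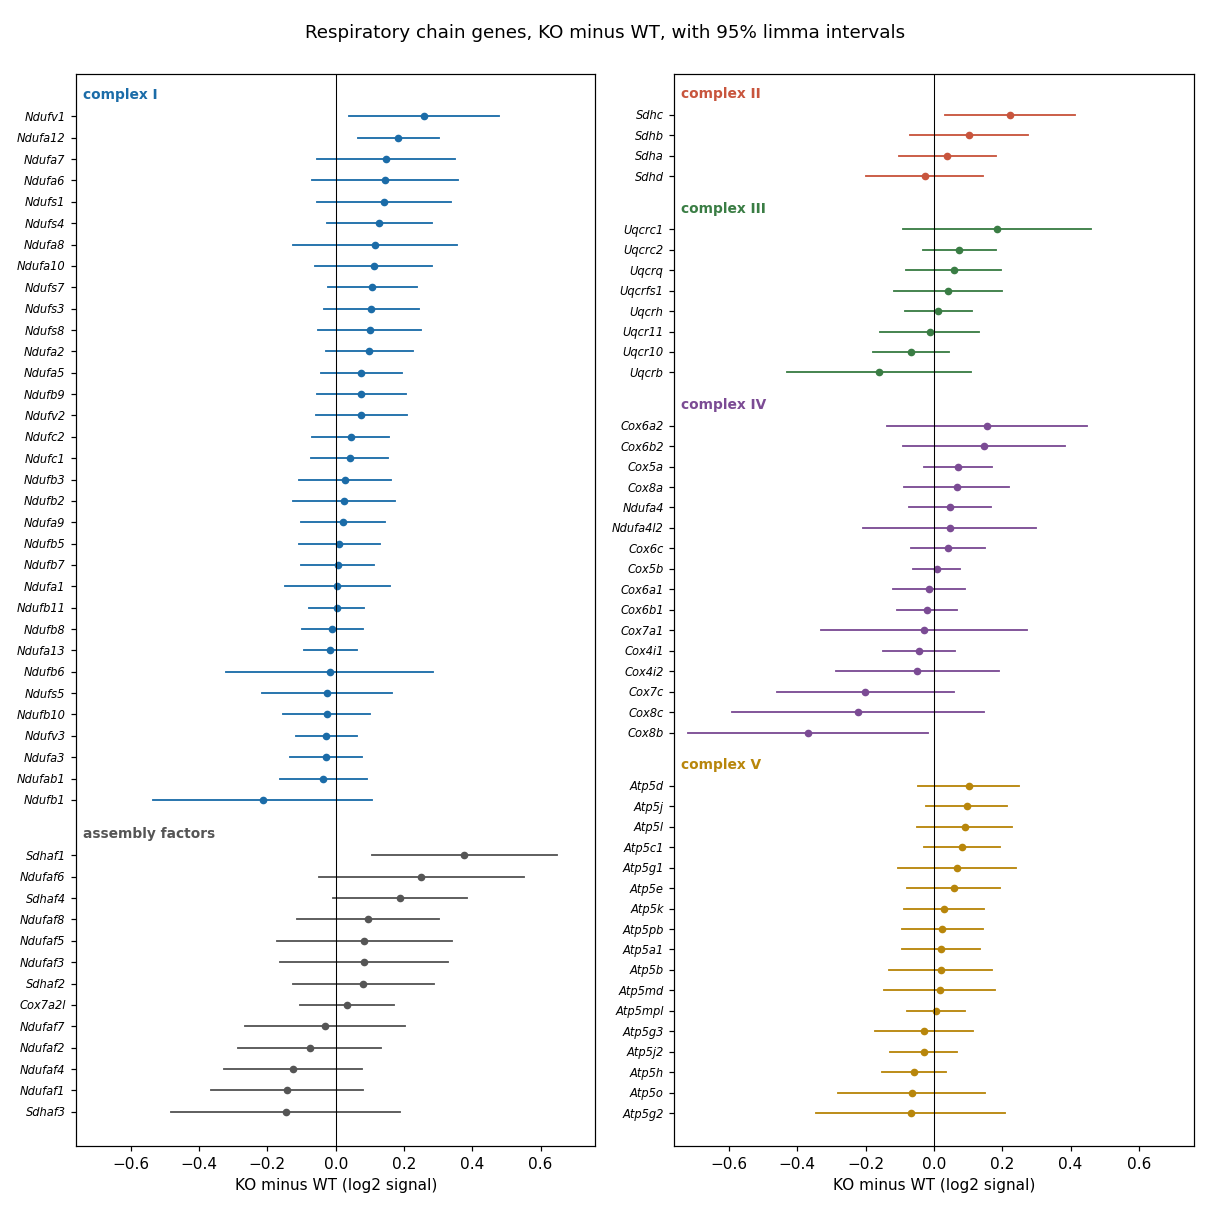
KO minus WT difference in log2 signal (horizontal axis) for each of the 91 tested respiratory chain genes, grouped by complex, with 95% limma intervals. Points run from -0.37 (Cox8b) to 0.38 (Sdhaf1), and 86 of the intervals stay within 0.5 log2 units of 0.

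Complex I takes electrons from NADH. Of its 33 tested subunits 24 had a difference above 0 (72.7%, against 56.7% of all genes), with a median of 0.041. With array medians subtracted 18 did (54.5%, against 50.1% of all genes), with a median of 0.015, and without WT array 1 the median was 0.019. KO arrays lay all above the WT arrays for 4 subunits (Ndufa12, Ndufb9, Ndufs3 and Ndufs4), against 10.1% of all genes, and all below for 1 (Ndufab1), against 4.82%. Ndufv1, the subunit that binds NADH and FMN, had log2 signals of 11.77, 12.06 and 12.09 in KO, against 11.62, 11.73 and 11.80 in WT. KO arrays 5 and 6 lay above every WT array and KO array 4 lay within the WT range. The difference was 0.26 ± 0.10 (limma SE, n = 3 each, adjusted p = 0.573), and it was 0.33 and 0.21 at the gene's other probes.

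Ndufa12, an accessory subunit of the arm that binds NADH, had signals of 12.37, 12.38 and 12.32 in KO, against 12.20, 12.14 and 12.17 in WT, and the groups did not overlap. Its difference was 0.18 ± 0.05 (limma, adjusted p = 0.480), but its other 3 probes had differences of -0.06, -0.28 and -0.29. The probes of this gene disagreed in direction. One of the lower probes had signals of 11.63, 11.99 and 12.04 in KO and 12.09, 12.13 and 12.27 in WT, again without overlap.

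Ndufs4, an accessory subunit of the same arm, had signals of 11.78, 11.78 and 11.80 in KO and 11.55, 11.71 and 11.71 in WT, a difference of 0.13 ± 0.07 (limma, adjusted p = 0.612), but its other 3 probes had differences of 0.00027, 0.0047 and -0.055 with overlap. Ndufa7 had signals of 11.09, 11.28 and 11.16 in KO and 10.90, 11.05 and 11.13 in WT, a difference of 0.15 ± 0.09 (adjusted p = 0.618), with all 5 of its probes above 0, and 0.085 without WT array 1. At the brightest probe the groups did not overlap for Ndufs4 and overlapped for Ndufa7. Ndufb1 had the most negative difference of the complex, -0.21 ± 0.14 (limma, adjusted p = 0.635), with signals of 5.35, 5.64 and 5.74 in KO and 5.69, 5.95 and 5.74 in WT that overlapped. Without KO array 4 it was -0.099, and without WT array 2 it was -0.14. The Ndufb1 probe was the dimmest of the tested complex I genes, with a mean of 5.68 against a class median of 12.22.

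The catalytic core subunits and the accessory subunits were set side by side after their values had been seen, so no test was made. All 6 core subunits tested (Ndufs1, Ndufs3, Ndufs7, Ndufs8, Ndufv1 and Ndufv2) had a difference above 0, from 0.074 to 0.26, with a median of 0.11. Of 27 accessory subunits 18 were above 0 (66.7%), with a median of 0.020. Of all tested genes 56.7% were above 0. The core count was 6 of 6 also with array medians subtracted, with each gene's probes averaged and with each array left out. With each array left out the core median ran from 0.069 to 0.16. These recounts reuse the values that prompted the grouping, so they give it no separate support. Core and accessory subunits overlapped widely, since accessory differences ran from -0.21 to 0.18.

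The X-linked subunits Ndufa1 and Ndufb11 were level between groups. Ndufb11 had signals of 13.40, 13.41 and 13.44 in KO and 13.41, 13.40 and 13.43 in WT, and Ndufa1 had 11.65, 11.52 and 11.51 in KO and 11.57, 11.57 and 11.52 in WT. The differences were 0.0028 ± 0.04 and 0.0041 ± 0.07 (limma SE), the groups overlapped, and KO array 6 lay at the top of the Ndufb11 values and the bottom of the Ndufa1 values. Ndufb4 was under the filter, with signals of 3.84, 3.67 and 3.87 in KO and 3.64, 3.43 and 3.61 in WT, and was not tested.

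Complex II oxidises succinate and passes its electrons to ubiquinone. Its 4 subunits had a median difference of 0.071, with 3 above 0. Without KO array 6 the median was 0.039, with 2 of 4 above 0, and with array medians subtracted it was 0.046. Sdhc, a membrane anchor, had signals of 10.59, 10.68 and 10.74 in KO and 10.39, 10.44 and 10.51 in WT, and the groups did not overlap. Its difference was 0.22 ± 0.08 (limma, adjusted p = 0.573). The second probe of Sdhc had a difference of 0.0044 with overlap, and with its probes averaged the gene was at 0.11. The other anchor, Sdhd, had a difference of -0.027 ± 0.08, the iron-sulfur subunit Sdhb 0.10 ± 0.08 and the flavoprotein Sdha 0.039 ± 0.06, and the groups overlapped for all of these. Without KO array 6 Sdha was at -0.0028, and without WT array 1 Sdhb was at 0.057.

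The assembly factors included the tested gene with the largest positive difference. Sdhaf1, which helps to insert iron-sulfur clusters into Sdhb, had signals of 8.35, 8.10 and 8.42 in KO and 7.86, 8.01 and 7.86 in WT, without overlap. The difference was 0.38 ± 0.12 (limma, adjusted p = 0.541). Sdhaf4, an assembly factor that acts on Sdha, had signals of 9.71, 9.77 and 9.79 in KO and 9.59, 9.57 and 9.55 in WT, a difference of 0.19 ± 0.09 (adjusted p = 0.593), also without overlap.

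Other assembly factors had differences in both directions. Ndufaf6, needed for complex I assembly, had signals of 7.98, 7.96 and 8.37 in KO and 7.82, 7.91 and 7.83 in WT, a difference of 0.25 ± 0.13 (limma, adjusted p = 0.612). Every KO array lay above the WT arrays, with KO array 6 well above the other two KO arrays, and without it the difference was 0.12. Sdhaf3 had signals of 7.68, 7.97 and 7.58 in KO and 8.05, 7.66 and 7.96 in WT, a difference of -0.15 ± 0.15 with overlapping groups, and -0.064 without KO array 6. Ndufaf1 had all KO arrays below the WT arrays, with a difference of -0.14 ± 0.10. Over the 13 assembly factors 8 were above 0 (61.5%, against 56.7% of all genes), with a median of 0.081. KO arrays lay all above the WT arrays for 3 of them, against 10.1% of all genes, and all below for 1, against 4.82%. With probes averaged 6 were above 0, with a median of -0.0039, and without WT array 1 the median was 0.0086.

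**Figure D2:**
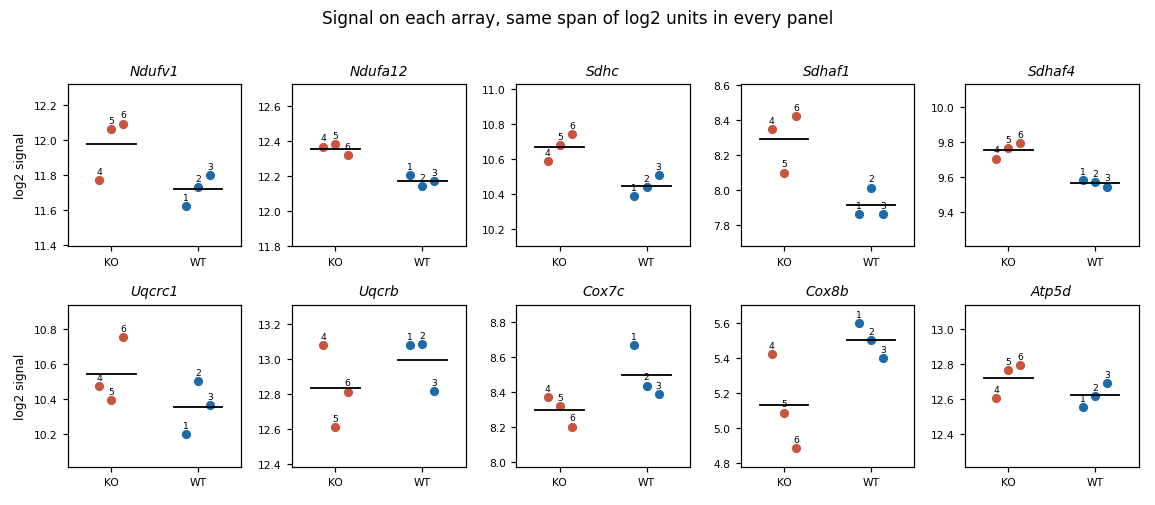
Log2 signal on each array (points, labelled with array number) and group means (lines) for 10 respiratory chain genes, KO left of WT, each panel spanning the same number of log2 units. Ndufa12, Sdhc, Sdhaf1 and Sdhaf4 had no overlap between groups, while Cox7c had the KO arrays below the WT arrays and the other panels overlapped.

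Complex III passes electrons from ubiquinol to cytochrome c. Its 8 subunits had a median difference of 0.027, with 5 above 0. Uqcrc1, a core protein, had signals of 10.47, 10.39 and 10.75 in KO and 10.20, 10.50 and 10.36 in WT, a difference of 0.19 ± 0.12 (limma, adjusted p = 0.630) that was 0.080 without KO array 6 and 0.11 without WT array 1. Uqcrb, a ubiquinone-binding subunit, had signals of 13.08, 12.61 and 12.81 in KO and 13.08, 13.09 and 12.82 in WT, a difference of -0.16 ± 0.12 (adjusted p = 0.664), which was -0.048 without KO array 5 and -0.28 without KO array 4. Both genes had groups that overlapped.

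Uqcr10, a small subunit, was lower in KO at all 3 of its probes, with differences of -0.067, -0.11 and -0.27. At the third probe the signals were 9.88, 9.71 and 9.64 in KO and 10.05, 10.08 and 9.92 in WT, without overlap (limma on every probe, adjusted p = 0.569). Uqcrc2, the other core protein, had a difference of 0.074 ± 0.05 and overlapping groups, and was at 0.046 without KO array 6. Uqcrq had a difference of 0.058 ± 0.06, with KO arrays above WT arrays by a small margin.

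Complex IV reduces oxygen to water. Its 16 tested genes had a median difference of -0.0031, with 8 above 0. Cox5a, a ubiquitous subunit, had tight groups, with signals of 12.71, 12.69 and 12.71 in KO and 12.63, 12.64 and 12.62 in WT. The difference was 0.071 ± 0.04 (limma, adjusted p = 0.621), without overlap, but another of its probes spanned 12.53, 11.94 and 12.36 in KO and 12.40, 12.48 and 12.22 in WT. Cox7c, another ubiquitous subunit, had signals of 8.37, 8.32 and 8.20 in KO and 8.67, 8.44 and 8.39 in WT. The KO arrays lay below the WT arrays, with a difference of -0.20 ± 0.11 (limma, adjusted p = 0.612), which was -0.11 without WT array 1. This probe of Cox7c was dimmer than the class median of 11.13, and how well it measures the subunit was not tested.

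The 2 largest differences of complex IV among tested genes were in tissue isoforms. Cox8b, known from heart and skeletal muscle, had signals of 5.42, 5.09 and 4.89 in KO and 5.60, 5.50 and 5.40 in WT, with KO array 4 just inside the WT range. The difference was -0.37 ± 0.15 (limma, adjusted p = 0.574), and -0.25 without KO array 6. Cox8c, a testis isoform, had signals of 5.11, 4.62 and 4.69 in KO and 5.07, 5.16 and 4.86 in WT, a difference of -0.22 ± 0.16 (adjusted p = 0.659), with overlap, which was -0.13 without KO array 5 and -0.38 without KO array 4.

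Cox8a, the widely expressed form, had a difference of 0.067 ± 0.07, and 0.012 without KO array 5. Relative to Cox8a on the same array, Cox8b differed by -0.44 and Cox8c by -0.29 between KO and WT, and the groups overlapped for both. Among markers of skeletal and heart muscle, 5 of 12 were above the filter. All 5 had a difference above 0, against 56.7% of all genes, with a median of 0.20. Their mean log2 signal ran from 6.40 to 6.79 in KO and from 6.29 to 6.36 in WT. Of the muscle isoforms, Cox8b and Cox7a1 had differences below 0 and Cox6a2 one above 0. The part of muscle tissue in the isoforms or in these markers was not tested.

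Cox6a2, another heart and skeletal muscle isoform, had signals of 7.88, 8.04 and 8.09 in KO and 7.64, 7.87 and 8.04 in WT, a difference of 0.15 ± 0.13 (limma, adjusted p = 0.692), which was 0.051 without WT array 1 and 0.25 without WT array 3. Relative to its ubiquitous partner Cox6a1 it differed by 0.17, with overlap. Cox7a1, the muscle isoform of subunit 7a, had signals of 8.89, 8.57 and 8.59 in KO and 8.84, 8.77 and 8.52 in WT, a difference of -0.029 ± 0.13 that changed sign when any of 4 arrays was left out. Both muscle isoforms overlapped between the groups.

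Cox6b2, a testis isoform, had signals of 9.98, 10.23 and 9.99 in KO and 9.95, 9.99 and 9.82 in WT, a difference of 0.15 ± 0.10 (limma, adjusted p = 0.651), which was 0.065 without KO array 5. Its difference from Cox6b1 on the same array was the only isoform pair that did not overlap: relative to the WT mean of each gene it was 0.080, 0.29 and 0.13 in KO and 0.049, 0.060 and -0.11 in WT. Of 9 pairs compared this way, 8 overlapped, and some genes entered several pairs. Among all single genes tested, 10.1% had the KO arrays above the WT arrays and 4.82% had them below. Cox7b2, also a testis isoform, was under the filter and not tested, with signals of 4.79, 4.14 and 5.91 in KO and 4.14, 3.95 and 3.52 in WT. KO array 6 carried the high value of Cox7b2, and KO array 5 and WT array 1 were level. Of 8 testis markers 1, Prm1, was above the filter, with a difference of -0.062.

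Cox4i2, an isoform of subunit 4 known from lung and responsive to oxygen, had signals of 6.45, 6.28 and 6.40 in KO and 6.42, 6.41 and 6.43 in WT, a difference of -0.048 ± 0.10. Ndufa4l2, a hypoxia-induced relative of Ndufa4, had signals of 6.13, 5.94 and 5.93 in KO and 5.98, 5.98 and 5.92 in WT, a difference of 0.046 ± 0.11. Their partners Cox4i1 and Ndufa4 had differences of -0.044 and 0.047. None of these had groups apart, and relative to the partners the differences were -0.0043 for Cox4i2 and -0.0014 for Ndufa4l2.

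**Figure D3:**
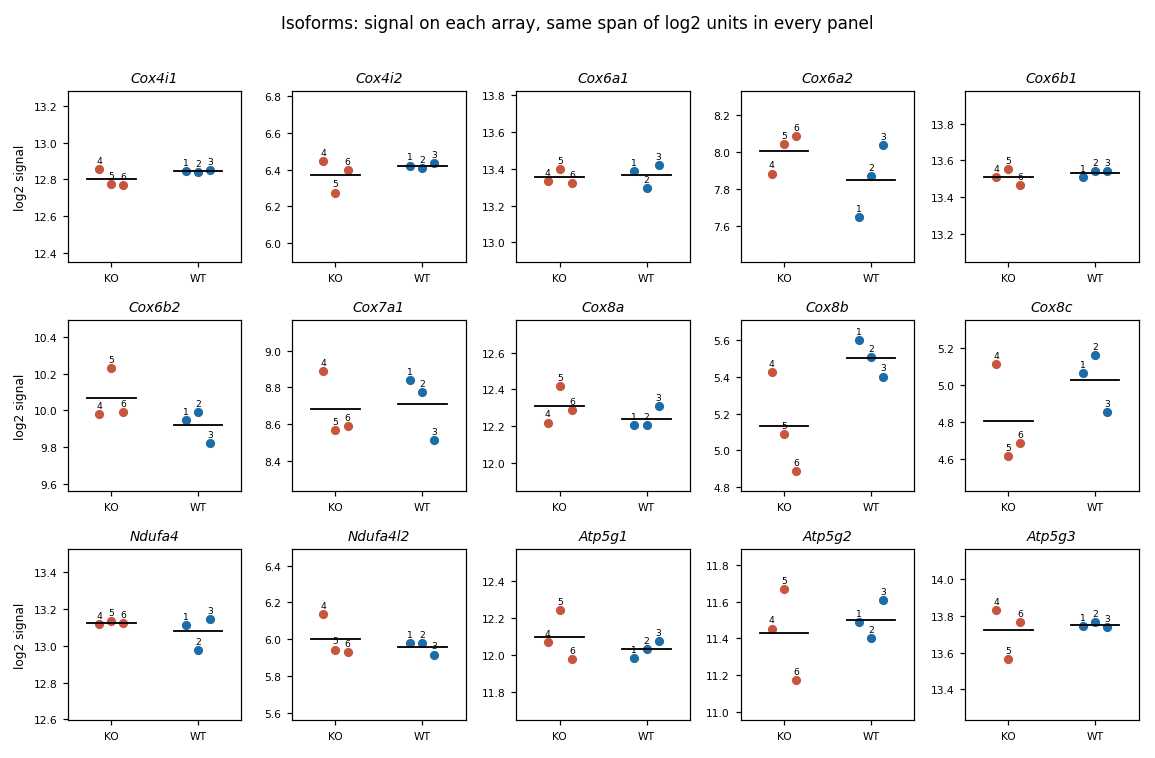
Log2 signal on each array (points, labelled with array number) and group means (lines) for 15 isoform genes of complexes IV and V, KO left of WT. Groups overlapped in every panel, and Cox8b had the largest difference, -0.37.

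Complex V makes ATP from the proton gradient. Its 17 subunits had a median difference of 0.021, with 12 above 0 (70.6%, against 56.7% of all genes), and all 17 intervals lay within 0.5 log2 units of 0. With array medians subtracted the median was -0.0048, with 7 above 0 (41.2%, against 50.1%), and without KO array 6 it was 0.056. Atp5d, the delta subunit of the F1 head, had signals of 12.61, 12.77 and 12.80 in KO and 12.56, 12.62 and 12.69 in WT, a difference of 0.10 ± 0.06 (limma, adjusted p = 0.626), with overlap, and 0.065 without KO array 6. Atp5c1, the gamma subunit, had signals of 12.90, 12.99 and 12.90 in KO and 12.87, 12.80 and 12.88 in WT, a difference of 0.082 ± 0.05, and Atp5j, of the stalk, had 12.26, 12.35 and 12.30 in KO and 12.21, 12.20 and 12.22 in WT, a difference of 0.096 ± 0.05. KO arrays lay above WT arrays for Atp5c1 and Atp5j, and Atp5c1 was at 0.051 without KO array 5. Atp5l, a membrane subunit, had a difference of 0.091 ± 0.06 with overlap, and 0.050 without WT array 2.

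The 5 tested subunits of the F1 head (Atp5a1, Atp5b, Atp5c1, Atp5d and Atp5e), grouped after their values had been seen, had differences of 0.020 to 0.10 with a median of 0.059. The other 12 subunits had a median of 0.011 and 7 above 0 (58.3%, against 56.7% of all genes). With array medians subtracted, and likewise without KO array 6, 3 of the 5 F1 genes were above 0. The 3 genes for the c subunit of the proton-carrying ring, Atp5g1, Atp5g2 and Atp5g3, encode the same mature protein and had differences of 0.067, -0.069 and -0.029, with overlap at these probes. Without KO array 6 Atp5g2 was at 0.060, and without KO array 5 Atp5g1 was at -0.0055 and Atp5g3 at 0.049. The other probe of Atp5g1 had signals of 8.08, 7.92 and 7.74 in KO and 8.35, 8.18 and 8.10 in WT, a difference of -0.30 without overlap (limma on every probe, adjusted p = 0.594).

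WT array 1 was the lowest of the 6 for 30 of the 91 genes, KO array 5 the highest for 30, and KO array 6 the highest for 25 and the lowest for 19. The range over the 6 arrays had a median of 0.21 log2 units, was under 0.25 for 62 genes and was over 0.5 for 7. Without KO array 6 the median difference was 0.035, against 0.030 over all genes. At an unadjusted p of 0.05 in limma 2 genes were then higher and none lower, against 4 and 1 with it. With all arrays 5.7% of all genes were higher and 2.86% lower, and these shares without KO array 6 are not given here.

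**Figure D4:**
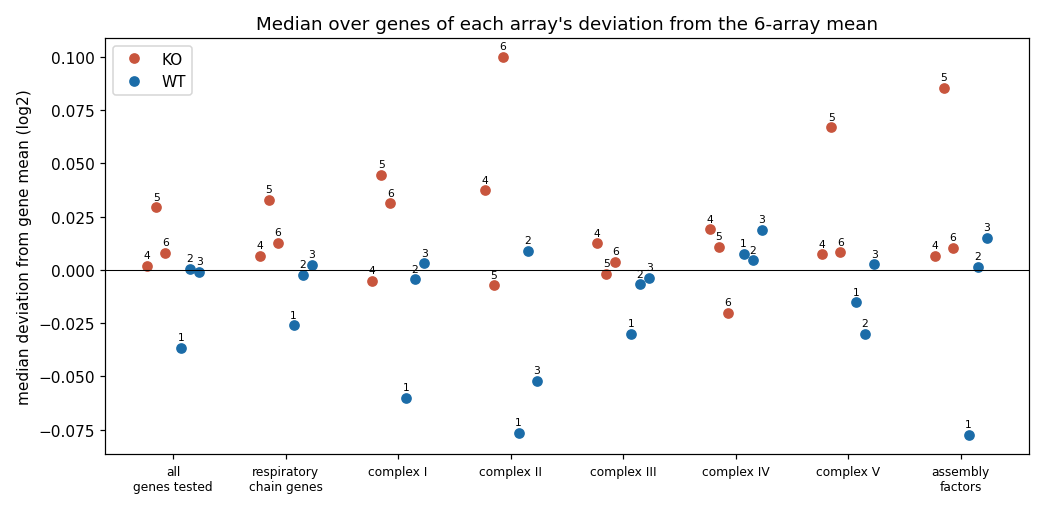
Median over genes of each array's deviation from the gene's own 6-array mean (vertical axis, log2), by class, with array numbers on the points, KO left of WT. WT array 1 was the lowest in most classes, including all genes tested, and KO array 5 was among the highest in several.

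Probes of 1 gene often disagreed. Of the 52 genes with more than 1 probe, 27 had all probes on one side of 0 and 25 had probes on both. Of the 23 genes with 3 or more probes, 8 had all of them above 0 and 2, Uqcr10 and Atp5j2, all below. Over 171 tested probes of these genes 6 were higher and 6 lower at an unadjusted p of 0.05, where 5.13% and 3.25% of all 25950 tested probes were. They included 2 further probes of Ndufab1, the acyl carrier protein, with differences of -0.33 and -0.39, while its brightest probe had -0.037.

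**Figure D5:**
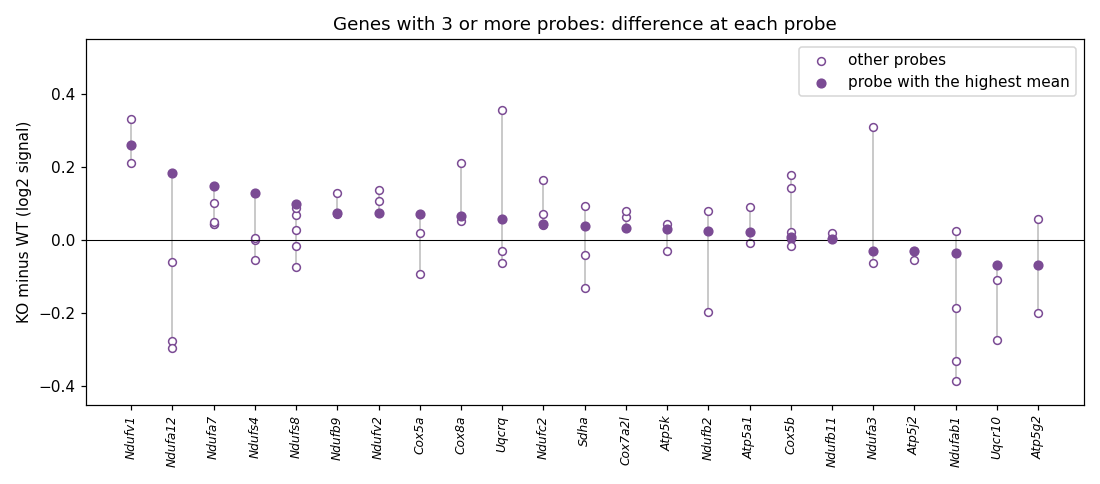
KO minus WT difference in log2 signal at each probe for the 23 genes with 3 or more probes, the brightest probe filled. Ndufv1 had all 3 probes between 0.21 and 0.33, whereas Ndufa12 ran from -0.29 to 0.18.

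Other genes of the pathway had no call either. No gene of any pathway list passed an adjusted p of 0.05 in limma. The 29 assembly and stability factors of complexes III to V had a median difference of 0.051. At an unadjusted p of 0.05 in limma, 2 of them were higher and 1 lower, where 5.7% and 2.86% of all genes were. Cox10, which makes heme for complex IV, had signals of 8.43, 8.56 and 8.73 in KO and 8.11, 8.37 and 8.31 in WT, a difference of 0.31 ± 0.12 (limma, adjusted p = 0.574). Sco1, a copper chaperone of complex IV, had a difference of -0.31 ± 0.17 with overlap.

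Among the 9 complex I assembly factors with other names the median was 0.064. Nubpl, an iron-sulfur protein needed for complex I, had a difference of 0.32 ± 0.12 (limma, adjusted p = 0.573), and Acad9 one of -0.22 ± 0.18. Among the 3 further complex III and IV genes and their carriers, Cyc1, cytochrome c1, had a difference of 0.080 ± 0.06. Cyct, testis cytochrome c, had 0.11 ± 0.24. The 16 genes of the citric acid cycle and pyruvate dehydrogenase had a median of -0.0053, with Ogdh, of the 2-oxoglutarate dehydrogenase, at 0.27 ± 0.10 (limma, adjusted p = 0.574) and Suclg2, a succinyl-CoA ligase subunit, at -0.12 ± 0.14.

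The 19 regulators of mitochondrial gene expression had a median of -0.056. Polg2, the accessory subunit of the mitochondrial DNA polymerase, had a difference of 0.30 ± 0.10 and Gabpa -0.21 ± 0.13. The 12 carriers and outer membrane proteins had a median of 0.0030, with Vdac2, an outer membrane channel, at 0.17 ± 0.06 and Slc25a4, an ADP/ATP carrier, at 0.14 ± 0.07. The 12 hypoxia genes had a median of -0.026, with Adm, adrenomedullin, at -0.36 ± 0.13 (limma, adjusted p = 0.570) and Ankrd37 at -0.26 ± 0.13.

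Markers of meninges and fibroblasts had a median difference of -0.28, with 5 of 9 lower at an unadjusted p of 0.05 in limma. Myelin markers had -0.16, with 4 of 9 lower, and red cell markers -1.25, with 3 of 4 lower. Of all genes 2.86% were lower at that p. Pericyte markers had a median of -0.053. The choroid plexus list had a median of -0.14 and wide spread within both groups, with a mean log2 signal of 6.48 to 8.18 in KO and 7.02 to 8.76 in WT. Its marker Ttr, transthyretin, had signals of 11.69, 13.54 and 13.74 in KO and 13.79, 13.49 and 13.38 in WT, low on KO array 4 alone, and Kcne2 had 5.81, 7.84 and 8.45 in KO and 9.44, 7.02 and 6.76 in WT, highest on WT array 1. None of these genes passed an adjusted p of 0.05 in limma, although the red cell genes Alas2 and Slc4a1 did without WT array 1 (-2.61 and -2.40), and the part of these cells in the respiratory chain values was not tested.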

How the data were processed

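Total RNA from the cerebellum of 3 KO and 3 WT mice was hybridised to Affymetrix arrays. The values deposited by the authors are on the log2 scale. RMA and Partek are named in the submitters' processing notes without a version. RMA brings the arrays toward one distribution, which can hide an overall shift in RNA content. The deposited values still had array medians from 6.48 (KO array 4) to 6.57 (KO array 5). Detection calls and scanner files were not used here.

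The platform annotation pairs 34945 of 45037 probes besides controls with 1 gene and 932 with several. Current symbols came from RefSeq (GRCm38.p6) by Entrez identifier, for 34741 of the 1-gene probes. A gene was tested when its brightest probe averaged above 4.70 (log2), the 30th percentile over all probes, and 14067 genes were. 1 gene with a matching symbol prefix was not analysed here, and 10 probes that name several genes were not used.

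KO minus WT was fitted with limma 3.58.1 in R 4.3.3, with an intensity trend and Benjamini-Hochberg adjustment over all tested genes. Errors after ± are limma standard errors. The script was tested on simulated data. An exact permutation of 3 against 3 arrays cannot go below 0.1. The labels do not tie the mice to litters, so the p-values measure the spread between these samples.

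Of 8 motif spellings searched in the promoters, 5 are reported, 1 per motif. Members and lists were chosen with earlier results of these data known. Named genes were the 4 largest differences per class, those at an unadjusted p of 0.05, all tissue isoforms, the 2 largest differences in each list of pathway genes or markers, and Gnb5; some further members are named because their groups did not overlap or their probes disagreed, chosen after their values were seen. Alternatives were the filter, normalization, choice of probe, variance model, array weights, and each array left out.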

Additional observations from a re-analysis of the deposited data

How the results depend on the processing

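No respiratory chain gene passed an adjusted p of 0.05 under any of the alternatives, and the lowest adjusted p in any was 0.175, for Ndufv1 without KO array 4. Each result rests on 3 arrays per group, and dim probes such as Cox8b and Cox8c lie near the filter. No paired analysis was possible because the label numbers run from 1 to 6 without repeating across genotypes. The cause of the changes below was not tested, except that fewer arrays or genes entered where arrays were left out or the filter was stricter.

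Over all genes, 8 passed with no filter, 3 with a filter at the 50th percentile and 8 with every probe tested alone, against 5, and 2 to 10 with one array left out. Members higher at an unadjusted p of 0.05 numbered 2 to 7 with one array left out, against 4. Members lower numbered 0 with the 50th percentile filter, 2 with probes averaged and 0 to 3 with one array left out, against 1. With every probe alone the count is of probes, not genes. Of 171 tested member probes 6 were lower and 6 higher, against 3.25% and 5.13% of all tested probes. The median difference of all members was 0.0462 after a second quantile normalization, 0.0037 with array medians subtracted and 0.0142 to 0.039 with one array left out. For complex III it was 0.0429 after the second quantile normalization, 0.0016 with array medians subtracted, 0.0144 with probes averaged and 0.0004 with every probe alone. For complex IV it was 0.0247 with the 50th percentile filter, -0.0289 with array medians subtracted and -0.0117 to 0.0156 with one array left out. With array medians subtracted it was 0.0149 for complex I, 0.0455 for complex II and -0.0048 for complex V. For complex V it ran from 0.0084 to 0.0556 and for assembly factors from 0.0086 to 0.1014 with one array left out, and was -0.0039 for assembly factors with probes averaged.

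Of 36 named and tested members 24 kept their sign in the alternatives run for them and 12 did not; dim genes such as Cox8b, Cox8c and Ndufb1 fall under the 50th percentile filter and have no value there. With one array left out, 29 of the 36 moved by over 1.5 times or changed sign in at least 1 case. With probes averaged, Atp5g1 was -0.115, Ndufa12 -0.112, Sdha -0.0094 and Sdhd 0.0118. With array weights, Cox7a1 was 0.0592, Sdhd 0.0234 and the Purkinje marker Car8 0.0289. With one array left out the ranges were -0.0194 to 0.0816 for Ndufa4l2, -0.935 to 0.0887 for Ttr, -0.0055 to 0.126 for Atp5g1, -0.0848 to 0.0489 for Atp5g3, -0.32 to 0.0684 for Car8, -0.0857 to 0.0008 for Cox4i2, -0.131 to 0.0369 for Cox7a1, -0.0735 to 0.013 for Sdhd, -0.186 to 0.0603 for Atp5g2, -0.0497 to 0.0127 for Cox6a1, -0.0418 to 0.0016 for Cox6b1, -0.161 to 0.381 for Cyct, -0.0028 to 0.0946 for Sdha, -0.85 to 0.036 for F5 and -0.0042 to 0.0818 for Ndufa4. Shares above 0 and medians of subunit groups were recomputed as alternatives chosen after seeing the data. The median of accessory complex I subunits was -0.0054 with array medians subtracted.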
